A study of Homo sapiens with 22 samples.

Results

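The regions described here are 10241 distal JUN regions of NCI-H660 cells that lay outside FOXA2 regions. NCI-H660 is a neuroendocrine prostate cancer cell line. They were chosen by 3 measured properties of the 18401 regions in its JUN ChIP-seq list from cells given a control siRNA (siNC). A region had to lie more than 1 kb from every protein-coding transcription start site (TSS), which 14278 did. It could not overlap the FOXA2 list of vehicle-treated NCI-H660 cells, which left 10253, and it could not fall in 17 or more of the 22 lists of the series, which removed 12. The chosen regions made up 55.7% of the JUN list. At the distance limit, 161 of them lay less than 500 bp beyond 1 kb, and 271 FOXA2-free JUN regions less than 500 bp short of it were left out. At the recurrence limit, 12 chosen regions were in 16 lists, with a median score of 231.5, and the 12 removed had a median score of 100.5. Being distal, free of FOXA2 in vehicle-treated cells and in few lists is therefore a property of the choice and not a result. The whole siNC JUN list, used below for comparison, also holds the promoter, FOXA2-bound and recurrent regions that the choice left out. Lower shares of the chosen regions beside it can thus follow in part from the choice.

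ChIP-seq isolates the DNA attached to a chosen protein, and ATAC-seq marks DNA that a transposase can reach. In NCI-H660 the series held JUN under siNC and under an siRNA against FOXA2 (siFOXA2), FOXA2 under vehicle and under ORY-1001 (10 µM for 4 h), and H3K4me2 and ATAC-seq under vehicle. PC3, a prostate cancer line from a bone metastasis, had FOXA2 under vehicle, ORY-1001 (10 µM) and C12 (0.5 µM, each for 4 h), JUN and FOSL1 under siNC and siFOXA2, H3K27ac and ATAC-seq under vehicle, and 2 further vehicle FOXA2 lists whose antibody was not labelled. ORY-1001 and C12 inhibit the histone demethylase LSD1. LNCaP, a luminal line, had JUN under siNC and under siFOXA1, JUN and FOXA2 in a vehicle-treated derivative that overexpresses FOXA2 (FOXA2OE), and JUN in a vehicle-treated sample titled FOXA2K265R. Another label of that last sample names FOXA2OE as its line, and here it is called by its title. JUN and FOXA2 in NCI-H660 were thus mapped in differently treated cells, JUN after control siRNA and FOXA2 after vehicle. Every condition had 1 list except the unlabelled pair, so no test between conditions was possible and no p-value is given. Shares carry Wilson 95% intervals, which reflect only how many regions were counted. The accessible regions of NCI-H660 held a TSS of 12 of 12 neuroendocrine marker genes within 1 kb (10 of 12 in PC3, without CHGA and NEUROD1). For luminal markers the count was 6 of 8 (without KLK2 and KLK3), and 7 of 8 in PC3 (without KLK3). For basal or stem-like markers it was 6 of 8 (without KRT5 and KRT14), and 6 of 8 in PC3 (without KRT14 and TP63). These counts thus separated the lines little.

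JUN is a subunit of AP-1, a family of basic leucine zipper dimers. Dimers of JUN with FOS proteins prefer the TPA response element (TRE), TGACTCA, and dimers of JUN with ATF or CREB-like proteins also bind the longer cyclic AMP response element (CRE), TGACGTCA. FOXA2 is a pioneer factor of the forkhead family, able to bind its sites in closed chromatin, and is expressed in neuroendocrine prostate cancer. H3K4me2 is a histone mark of enhancers and promoters.

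The sequences below come from high-scoring chosen regions and show the kinds of sites searched for. Each of them holds a marked word, which not every high-scoring region did. The highest-scoring region, near ZNF704, held none, and neither did the leading region near ROBO2. They are read from the plus strand of hg19, 90 bases each, with capitals for TGACTCA, TGACGTCA, TGACATCA or TGACCTCA on either strand, so that some appear as their reverse complement. TGACATCA and TGACCTCA are spelled like the CRE except at 1 base. NES and LRMDA hold a TRE, TRIO and ATF3 a CRE, RPL26L1 and EIF2AK3 the octamer TGACATCA, and POLR3GL TGACCTCA. NES and RPL26L1 also hold TGACCTCA on the other strand. Genes are those with the nearest protein-coding TSS.
NES, chr1:156630070-156630159: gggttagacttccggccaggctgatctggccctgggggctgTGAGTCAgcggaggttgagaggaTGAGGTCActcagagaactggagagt
LRMDA, chr10:77863118-77863207: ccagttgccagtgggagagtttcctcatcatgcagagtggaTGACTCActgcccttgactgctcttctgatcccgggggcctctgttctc
TRIO, chr5:14264870-14264959: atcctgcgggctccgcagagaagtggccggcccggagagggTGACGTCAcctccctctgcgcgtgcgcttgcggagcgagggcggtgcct
ATF3, chr1:212732365-212732454: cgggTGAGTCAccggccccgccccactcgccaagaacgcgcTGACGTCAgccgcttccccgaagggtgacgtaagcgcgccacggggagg
RPL26L1, chr5:172332094-172332183: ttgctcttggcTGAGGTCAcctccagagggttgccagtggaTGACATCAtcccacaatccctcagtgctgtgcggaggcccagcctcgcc
EIF2AK3, chr2:88899764-88899853: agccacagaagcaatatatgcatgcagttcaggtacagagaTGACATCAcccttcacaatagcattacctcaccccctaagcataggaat
POLR3GL, chr1:145455434-145455523: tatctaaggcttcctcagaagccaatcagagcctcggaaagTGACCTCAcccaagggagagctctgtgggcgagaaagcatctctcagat

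The first question was whether the FOXA2-free distal JUN regions lay in accessible chromatin. Of the 10241 regions 77.9% (77.1 to 78.7%) overlapped an ATAC region of NCI-H660 by at least 1 bp, beside 86.0% of all siNC JUN regions, 93.4% of the 3667 distal JUN regions with FOXA2 and 98.6% of the 3874 promoter JUN regions without FOXA2. The share was 15.4 percentage points below that of the FOXA2-bound distal regions (Newcombe 95% interval 14.3 to 16.5). H3K4me2 overlapped 60.1% (59.2 to 61.1%), beside 70.4% of all siNC JUN regions, 81.4% of FOXA2-bound distal regions and 83.5% of promoter regions. Both marks came together at 5994 regions (58.5%), ATAC alone at 1986, H3K4me2 alone at 162 and neither at 2099 (20.5%). Regions with both had a median JUN score of 94 and those with neither 33. The score is the value the authors deposited for each region, used here only as a rank or a minimum within a list. Where accessible, the regions overlapped ATAC regions at the median percentile 79.4 of that list's scores, and FOXA2-bound distal regions overlapped ATAC regions at percentile 91.5. With an overlap of at least 50% of both regions required, the accessible share was 41.3% and the H3K4me2 share 18.4%.

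The second question was how many of these regions were still called after FOXA2 silencing. In siFOXA2 cells 41.7% (40.7 to 42.6%) overlapped a JUN region, beside 48.0% of all siNC JUN regions. The siFOXA2 list held 59452 regions. Promoter JUN regions without FOXA2 were kept in 70.8%, which is 29.1 points more than the distal FOXA2-free regions. FOXA2-bound distal regions were kept in 37.7%, which is 3.97 points less (2.13 to 5.80). That small gap depended on the score. It was 9.45 points among regions scoring at least 50 and 1.37 points (−0.36 to 3.07) when only siFOXA2 regions scoring at least 50 were counted. Kept regions had a median siNC score of 107, and lost ones had 56.

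Across score deciles of the whole siNC list, the kept share of FOXA2-free distal regions went from 27.7% in decile 1 to 81.3% in decile 10, and that of FOXA2-bound distal regions from 33.1% to 61.9%. The classes were close in the lower deciles, with intervals of the difference that included 0 in deciles 1 to 5. In decile 8 the FOXA2-free regions were kept more often by 15.2 points (9.79 to 20.3), in decile 9 by 14.9 points (9.26 to 20.4) and in decile 10 by 19.3 points (13.9 to 24.7). Among the strongest JUN regions away from promoters, therefore, those without FOXA2 were more often called again under siFOXA2 than those with it. Regions are not replicates, each arm had 1 library, and the depth of neither is known, so the contribution of the library to this gap cannot be told apart from that of the silencing.

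**Figure D1:**
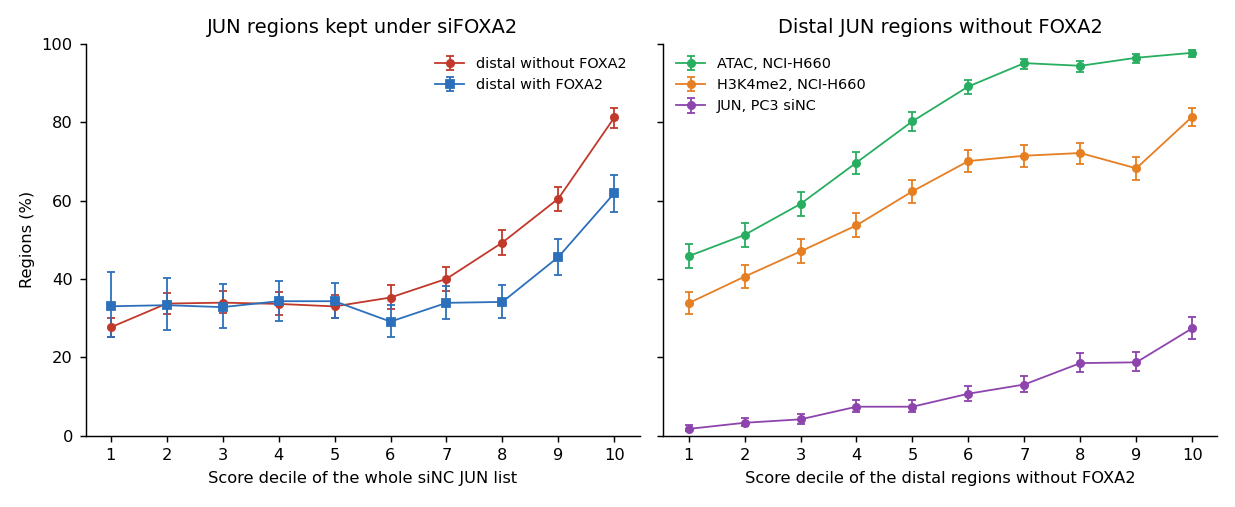
Share of regions (y axis, percent) by JUN score decile (x axis, 1 lowest to 10 highest), with Wilson 95% intervals as bars. Left, regions kept under siFOXA2 for distal JUN regions without FOXA2 (circles) and with FOXA2 (squares), which part in the upper deciles, 81.3% against 61.9% in decile 10. Right, overlap of the FOXA2-free regions, in deciles of their own scores, with ATAC, H3K4me2 and PC3 JUN regions, all higher in decile 10 than in decile 1.

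Other measures followed the score as well. In deciles of the 10241 regions the accessible share went from 45.9% (scores 13 to 24) to 97.8% (scores 354 to 4944), the H3K4me2 share from 33.9% to 81.5% and the share with a PC3 JUN region from 1.76% to 27.4%. Among accessible regions the kept share was higher with H3K4me2 than without it. It was 2997 of the 5994 with the mark (48.7 to 51.3%) and 29.4% (27.4 to 31.5%) of the 1986 without it, at median scores of 94 and 91. The difference was 20.6 points (18.2 to 22.9), and standardised over score deciles, a comparison added after the values were seen, it was 19.3 points (17.03 to 21.6).

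The TRE was the most common of the searched AP-1 and CRE-type words. Within 100 bp of the centre, TGACTCA on either strand was found in 17.1% of the FOXA2-free distal regions (16.4 to 17.9%, n = 10239 windows, 2 with unknown bases left out), and the value was 11.2% within 50 bp. In windows 2 kb away the share was 3.16%, and in 65732 distal accessible regions without JUN and FOXA2 it was 5.13%. Accessible FOXA2-free regions held it in 20.3%, more than FOXA2-bound distal regions (12.96%) and promoter regions (7.08%). In PC3 the corresponding class, distal JUN regions without PC3 FOXA2, held the TRE in 60.1% of windows. The share in NCI-H660 went up with the score, from 4.20% in the lowest decile to 39.8% in the highest, so that even the highest-scoring regions of NCI-H660 held it less often than the PC3 class as a whole.

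The CRE and the octamers spelled like it were less common. The palindrome TGACGTCA was found in 1.61% of the regions and in 6.54% of the highest score decile, beside 0.0837% of distal accessible regions without JUN, 0.655% of FOXA2-bound distal regions, 0.424% of the PC3 class and 9.71% of promoter regions. TGACATCA was found in 5.27%, beside 1.02% of the accessible regions without JUN, 2.51% of FOXA2-bound distal regions and 1.91% of the PC3 class. TRE windows outnumbered TGACATCA windows by a factor of 3.25 in the NCI-H660 regions and 31.5 in the PC3 class. TGACCTCA was found in 6.21%, in 15.2% of the highest decile, in 1.64% of the accessible regions without JUN and in 2.99% of windows 2 kb away. Its share was similar in accessible (6.28%) and non-accessible FOXA2-free distal regions (5.97%). TGACATCA had 5.99% and 2.74% there. At least 1 of TGACTCA, TGACGTCA and TGACATCA was present in 23.4% and at least 2 of them in 0.635%. None of these words contains another, and in the highest score decile 57.8% held at least 1 of the 3.

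The forkhead words TGTTTAC and TATTTAC (either strand) were found in 5.63% of the FOXA2-free distal regions, 23.1% of FOXA2-bound distal regions, 12.5% of distal accessible regions without JUN and FOXA2, and 6.83% of windows 2 kb away. FOXA2-bound regions were left out of both FOXA2-free sets by construction, and the regions described here still held the words less often than the accessible regions without JUN did. GGAATG, the core bound by TEAD factors, was found in 11.98% (10.3% of the accessible regions without JUN, 18.3% of the PC3 class), and the E-box CAGCTG in 17.5% (16.01% and 12.3%). The CTCF core motif was found in 0.361%, beside 1.59% of the accessible regions without JUN. A match is a description of letters and not evidence of a bound factor.

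**Figure D2:**
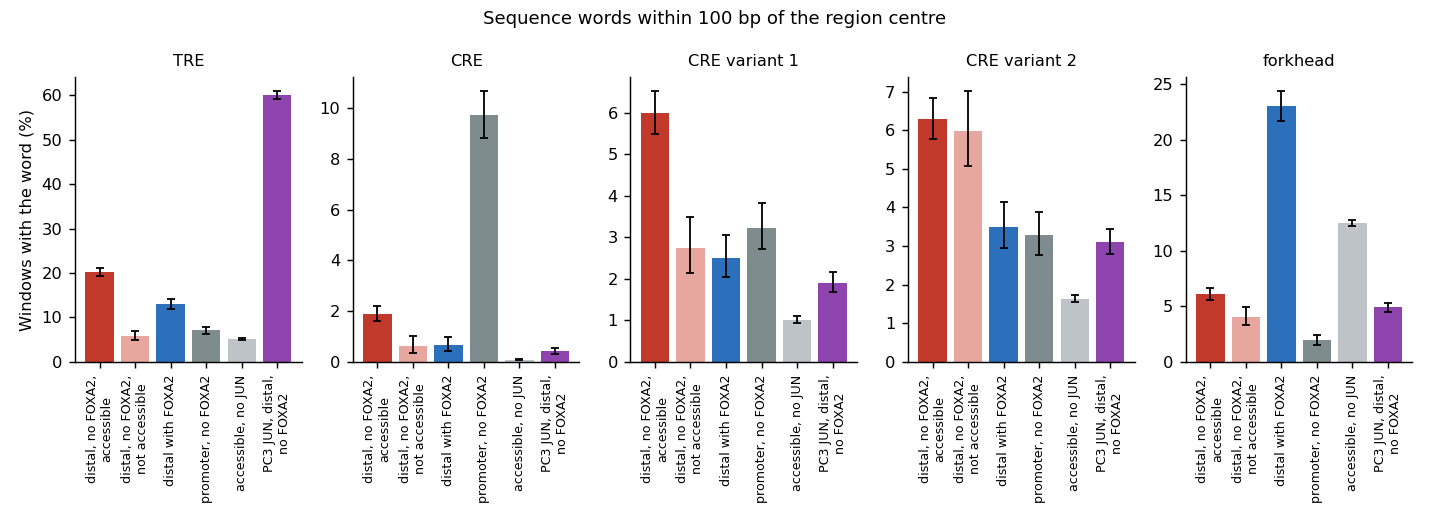
Share of windows (y axis, percent, separate scale per panel, bars from 0) that hold the TRE, the CRE, CRE variant 1 (TGACATCA), CRE variant 2 (TGACCTCA) or a forkhead word within 100 bp of the region centre, with Wilson 95% intervals. The classes are accessible and non-accessible FOXA2-free distal regions, FOXA2-bound distal and FOXA2-free promoter regions, accessible regions without JUN, and PC3 distal JUN regions without FOXA2. The TRE reached 20.3% in the accessible FOXA2-free regions and 60.1% in the PC3 class.

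The words were concentrated near the region centres. In accessible FOXA2-free regions the TRE occurred 4.90 times as often per bp within 50 bp of the centre as at 150 to 250 bp (1217 and 497 words), TGACATCA 6.16 times, TGACGTCA 16.7 times (117 and 14 words) and TGACCTCA 3.05 times. Forkhead words had a ratio of 1.18. In the 2261 regions outside accessible chromatin the TRE ratio was 2.13, from 97 and 91 words.

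**Figure D3:**
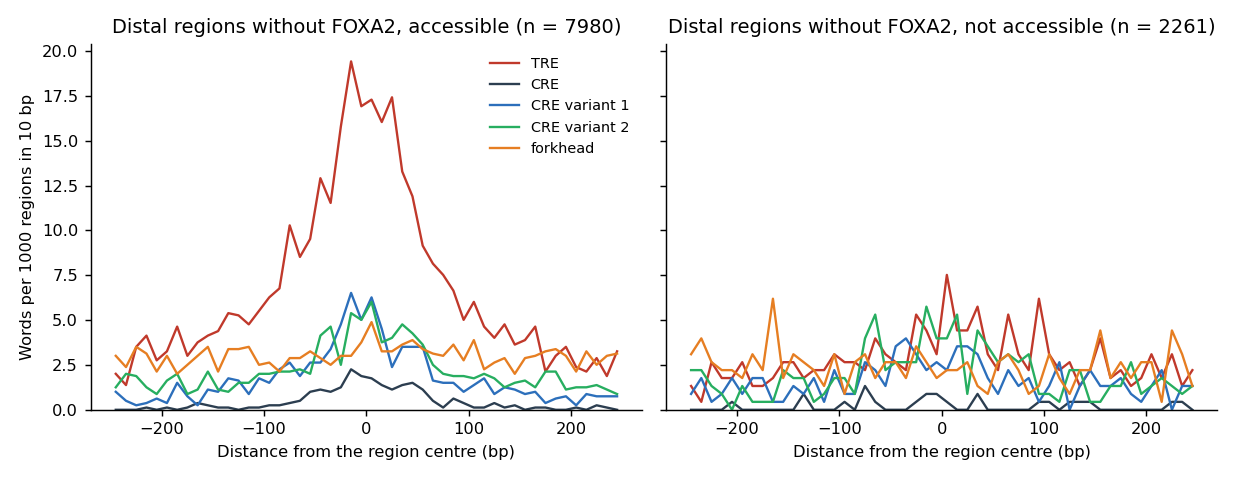
Words per 1000 regions in bins of 10 bp (y axis) by distance from the region centre (x axis, bp) in accessible (left, n = 7980) and non-accessible (right, n = 2261) distal JUN regions without FOXA2. Lines are the TRE, the CRE, its variants TGACATCA (variant 1) and TGACCTCA (variant 2), and the forkhead words. The TRE line has a central maximum on the left and the forkhead line is nearly flat.

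8-base words were also ranked without a preset motif. Among words in at least 1% of the regions, the 10 with the largest ratio to distal accessible regions without JUN were TGACGTCA (19.3), GACGTCAC (11.8), ACGTCACC (8.58), GTGACTCA (5.29), TGACATCA (5.18), GGTCTCGA (4.95), GTGAGTCA (4.84), ATGATGTC (4.84), GACTCATC (4.80) and GAGTCACC (4.77). Apart from GGTCTCGA, each contains or overlaps the TRE, the CRE or TGACATCA. GGTCTCGA led the ranking within the regions outside accessible chromatin, where it was in 3.94% of windows and in 0.227% of accessible regions without JUN. Any of the 10 leading words there was in 6.63% of these windows, 1.24% of accessible FOXA2-free regions, 1.10% of accessible regions without JUN and 3.41% of windows 2 kb away. These 10 words were chosen from the same windows by their ratio to accessible regions without JUN. The gap between those sets thus follows from the choice and is not a result.

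The site in a region went with its other overlaps. Regions with the TRE alone had a median score of 174, were kept in 48.6% and overlapped a PC3 JUN region in 31.9% (29.7 to 34.1%, n = 1691). Regions with TGACATCA alone had a similar score (183) and kept share (48.1%) but overlapped a PC3 JUN region in 6.95% (5.02 to 9.56%, n = 489). Regions with the CRE alone had a median score of 256, were kept in 69.4% (61.5 to 76.3%, n = 147), carried H3K4me2 in 81.0% and overlapped a JUN region of FOXA2K265R LNCaP cells in 41.5%, beside 15.7% for the TRE alone and 15.5% for TGACATCA alone. The 7849 regions with none of the 3 words had a median score of 54 and were kept in 39.2%, and the 2392 with any of them were kept in 49.8%. That order depended on the score. Averaged over score deciles the kept share was 36.7% with a word and 42.5% without, a difference of −5.84 points where the plain one was 10.6. The share with a word was the lower in deciles 1 to 9, with only 55 such regions in decile 1. In decile 10 it was the higher, 81.08% (77.73 to 84.03%, n = 592) beside 76.85% (72.65 to 80.58%, n = 432).

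Few of these regions were shared with the other lines. A PC3 siNC JUN region overlapped 1154 of them, 11.3% (10.7 to 11.9%), beside 16.5% of all siNC JUN regions, 18.8% of FOXA2-bound distal regions and 19.8% of promoter regions. PC3 chromatin was accessible at 36.2% and carried H3K27ac at 22.4%, beside 50.4% and 38.9% of all siNC JUN regions. In LNCaP the shares were 12.3% for FOXA2K265R JUN, 4.91% for FOXA2OE JUN, 3.95% for siNC JUN and 2.42% for JUN under the FOXA1 siRNA. All siNC JUN regions had 23.7% (FOXA2K265R), 11.6% (FOXA2OE), 7.12% (siNC) and 5.58% (FOXA1 siRNA). FOSL1, an AP-1 subunit profiled in PC3 only, overlapped 3.39% under siNC and 4 regions (0.0391%) under siFOXA2, beside 6.72% and 1.37% of all siNC JUN regions. The whole siNC list includes regions in 17 or more lists. Without those, FOXA2-bound distal regions overlapped FOSL1 in 9.71% (siNC) and 1.23% (siFOXA2), and promoter regions without FOXA2 in 3.92% and 0.0774%. JUN of LNCaP overlapped 9.6% and 4.6% of these classes under siNC, and 8.78% and 2.27% under the FOXA1 siRNA. The lists differed in length, from 1538 regions (FOSL1 under siFOXA2) to 210960 (PC3 ATAC). In the siNC list alone were 1033 regions (10.1%), 6816 were in 2 to 5 lists and 2392 in 6 or more.

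The 1154 regions shared with PC3 JUN differed from the other 9087 in sequence and score. They held the TRE in 48.8% of windows, beside 15.5% of the accessible regions without PC3 JUN, and TGACATCA in 4.51% beside 6.13%. Their median score was 162, and that of the others 63. In PC3 they were accessible in 93.9% and carried H3K27ac in 81.8%, and 27.1% (24.6 to 29.8%) overlapped a PC3 JUN region under siFOXA2. In NCI-H660 they were kept under siFOXA2 in 51.0% (48.1 to 53.8%).

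**Figure D4:**
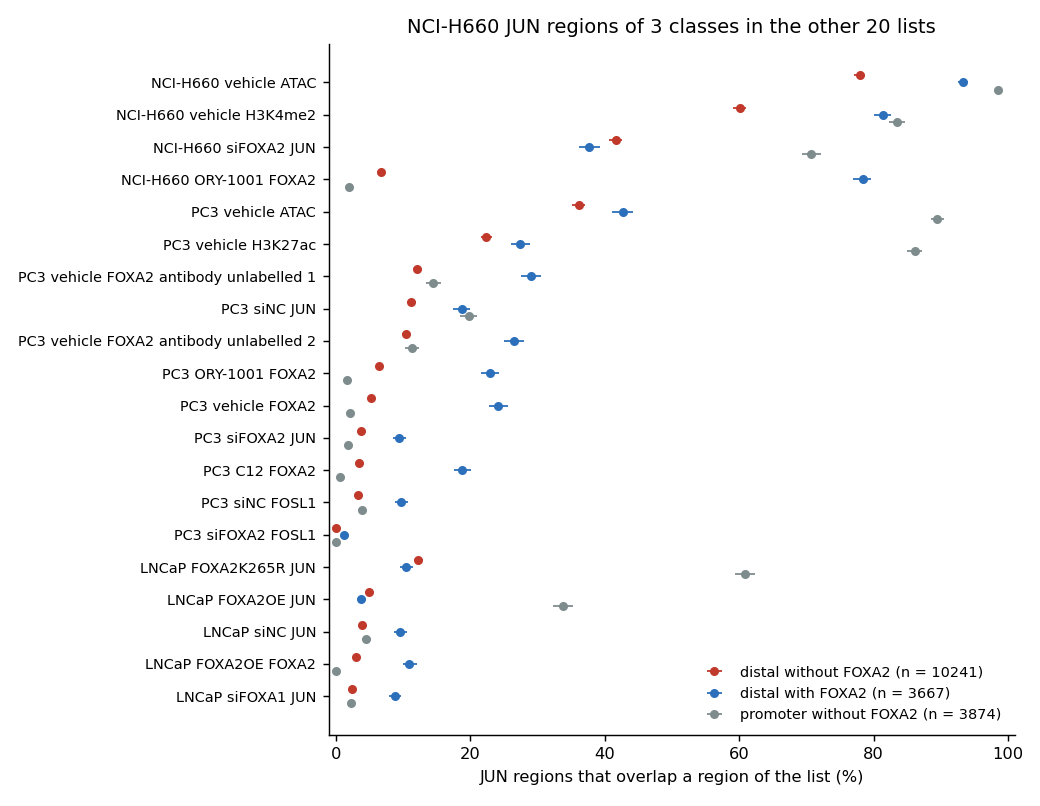
Share of NCI-H660 siNC JUN regions (x axis, percent) that overlap each of the other 20 lists (y axis), for distal regions without FOXA2, distal regions with FOXA2 and promoter regions without FOXA2, with Wilson 95% intervals. The 2 lists that define the classes are left out. Promoter regions lie far above both distal classes for the FOXA2K265R JUN list (60.9% against 12.3% and 10.5%), and FOXA2-bound regions lie above the others in every FOXA2 list.

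FOXA2 was called at some of these places under other conditions. In NCI-H660 cells treated with ORY-1001, 685 of the regions (6.69%, 6.22 to 7.19%) overlapped a FOXA2 region, with a median score of 64 where the whole list had 131. All siNC JUN regions did so in 22.6%, and the FOXA2-bound distal regions, a class defined by FOXA2 overlap under vehicle, in 78.4%. Within 1 kb of 420 regions (4.10%) lay a FOXA2 region of vehicle-treated cells, and the median distance to the nearest one was 49930 bp. In PC3 the vehicle FOXA2 list overlapped 546 regions (5.33%, 4.91 to 5.78%), beside 10.8% of all siNC JUN regions and 24.2% of FOXA2-bound distal regions. These 546 held the forkhead words in 12.5% and the TRE in 32.4%. The pair of unlabelled-antibody FOXA2 lists overlapped 12.2% and 10.5%, a mean of 11.3% ± 1.21 (SD, n = 2 lists), beside 17.6% and 15.4% of all siNC JUN regions and 29.0% and 26.5% of FOXA2-bound distal regions. The mean was 7.34% with an overlap of at least 50% of both regions. Of the regions with a PC3 JUN region, 34.2% also overlapped the PC3 vehicle FOXA2 list, beside 1.66% of those without.

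Chromosome 8 stood apart. It held 1630 of the regions (15.9%), which was 27.8 per 100 ATAC regions of that chromosome, where the other chromosomes without Y had 5.45 to 12.7. The accessible share was 78.9 to 92.4% on the other chromosomes without Y, and 45.45% for the 11 regions on Y. On chromosome 8 only 39.8% were accessible, and the median score was 40. The excess lay on the long arm, with 1555 regions (32.5 per 100 ATAC regions, 37.2% accessible, median score 38), while the short arm had 75 (7.02 per 100, 93.3% accessible, median score 124). Accessible regions alone came to 11.1 per 100 ATAC regions on chromosome 8 and 4.30 to 10.3 on the other chromosomes without Y. The chromosome held 12.5% of all siNC JUN regions and 18.2% of the siFOXA2 JUN list, but 5.86% of the ATAC list, 5.65% of the H3K4me2 list and 6.52% of the PC3 JUN list. The DNA copy number of the line was not analysed here, and its part in these numbers was not tested. Without chromosome 8 the accessible share was 85.1%, the kept share 40.5% and the TRE share 18.8%.

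**Figure D5:**
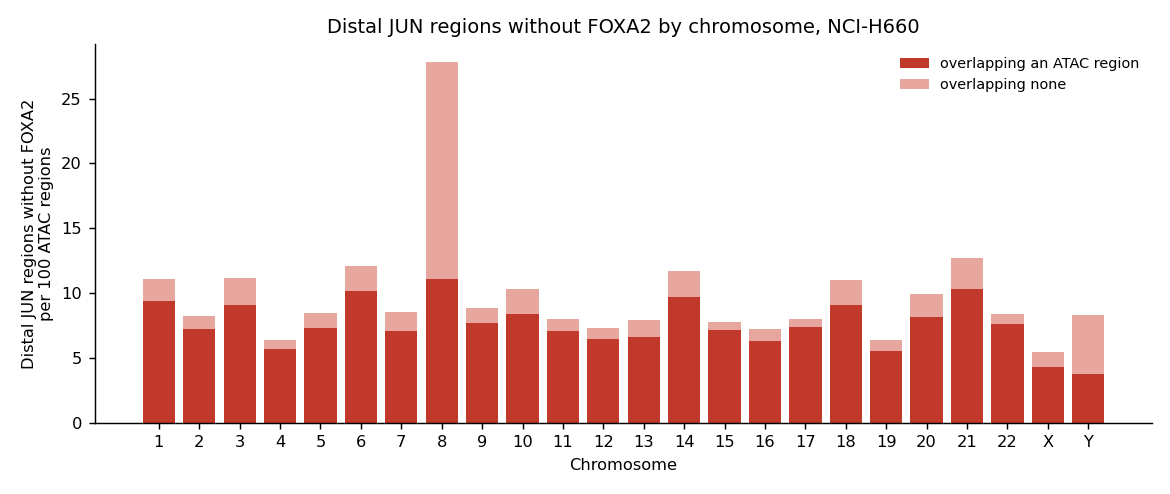
Distal JUN regions without FOXA2 per 100 NCI-H660 ATAC regions (y axis, bars from 0) on each chromosome (x axis), split by overlap with an ATAC region. Chromosome 8 reaches 27.8, mostly from regions that overlap none, and the other chromosomes without Y lie between 5.45 and 12.7.

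The 2261 regions outside accessible chromatin were weaker and differed in sequence. Their median score was 34 (93 for accessible ones), 7.17% carried H3K4me2, 30.4% were kept, 5.93% held the TRE and 0.619% the CRE. On chromosome 8 there were 981 of them, 43.4% of the total, and these held no CRE. The kept share was 42.9% for those on chromosome 8 and 20.9% for the 1280 elsewhere, both with a median score of 34. The 32 bases at the region centre occurred at more than 1 place of the genome in 26.8% of them (25.02 to 28.7%), in 8.86% of the accessible regions and in 10.2% of the accessible regions without JUN. The share was 19.98% for those on chromosome 8 and 32.03% elsewhere. The strongest of these regions lay in intergenic sequence near PAM, the gene of a peptide-amidating enzyme (chr5:102374868-102375135), and its central bases were found at 19550 places. It was in 13 lists, with scores of 1019 in the siNC and 2838 in the siFOXA2 JUN list. The part of repeated sequence in its signal was not tested. Counting only the regions whose central bases occur at 1 place, the kept share was 41.0%, the TRE share 18.5% and the accessible share 81.5%.

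By position the regions resembled accessible chromatin. Introns of protein-coding genes held 42.7%, intergenic sequence 34.5%, genes of long non-coding RNAs alone 17.9%, coding exons 3.37% and UTRs 1.54%. For distal accessible regions without JUN the values were 43.3%, 35.8%, 15.5%, 3.86% and 1.55%. The median distance to the nearest TSS was 47669 bp, beside 61396 bp for FOXA2-bound distal regions and 42458.5 bp for the accessible regions without JUN. Mean GC content of the windows was 50.9% in accessible and 46.6% in non-accessible regions, 46.9% in FOXA2-bound distal regions and 48.2% in accessible regions without JUN.

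The regions were spread over 4850 nearest genes, of which 2842 had 1 region and 78 had at least 10. The 10 genes with most were all on chromosome 8. They were CSMD3 (87 regions, 16 accessible), RALYL (70, 13), SNX16 (42, 11), RIMS2 (30, 6), EYA1 (28, 11), TRPS1 (28, 7), MMP16 (28, 6), VPS13B (27, 2), KCNV1 (26, 5) and HNF4G (25, 3). Most of these regions were weak. Distal accessible regions without JUN nearest to the same genes numbered 82, 66, 35, 15, 30, 44, 34, 18, 22 and 28, in the order given. Ranked by accessible regions outside chromosome 8, an order chosen after the values were seen, ZMIZ1, a transcriptional coactivator gene, came first with 21 regions, all accessible and 9 of them kept. TENM4, a teneurin adhesion gene, had 15 accessible regions, and NRXN3, a neurexin gene of synapses, GADD45G, a stress response gene, PDE4D and PPIAL4G had 12 each. Nearest to ZMIZ1 lay 47 distal accessible regions without JUN, to TENM4 67, NRXN3 67, GADD45G 21, PDE4D 57 and PPIAL4G 15. Whether JUN regions were concentrated at any of these genes was not tested.

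In every gene list but one, fewer than 1% of the regions had their nearest TSS in the list, so the counts are small. The AP-1 and immediate-early genes had 24 regions (0.234%, beside 0.218% of accessible regions without JUN). Of these 19 were kept under siFOXA2 (79.2%), beside 41.7% of all the regions. They included 5 regions nearest to JUN itself, 4 of them kept, 3 of 3 kept near KLF6, 2 of 2 near ATF3 and 2 of 2 near FOS. DUSP1 (score 883) and IER3 (764) had 1 each, both kept. Regions near 1 gene are neighbours, so the 24 are not independent. The genes named within the lists were chosen after their values were seen. Axon guidance and neuronal adhesion genes had the most regions, 136 (1.33%, beside 1.58% of accessible regions without JUN and 1.99% of FOXA2-bound distal regions), and 41 were kept (30.2%). EPHB1, an ephrin receptor gene, had 11 with 6 kept, CADM1, a cell adhesion gene, had 11 with 6 kept, DCC, a netrin receptor gene, had 6 with 0 kept and LSAMP had 6 with 0 kept.

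Neuroendocrine transcription factor genes had 54 regions (0.527%, beside 0.545% and 0.873%), of which 22 were kept (40.7%). SOX4 had 9, 2 of them kept, ST18 had 8, SOX2 had 6, and FOXA2 itself had 3, all 3 accessible and kept. Neuroendocrine secretory and surface genes had 64 (0.625%, beside 0.298% and 0.382%) with 28 kept (43.75%), but 30 of the 64 were nearest to RIMS2 and 10 to STMN2 on chromosome 8. Their accessible regions came to 33, or 0.414% of all accessible ones. Cell polarity, endothelin and ARF6 genes had 40 regions (0.391%, beside 0.417% of accessible regions without JUN) with 17 kept (42.5%). Notch and WNT pathway genes had 43 (0.420%, beside 0.487%) with 18 kept (41.9%). For the neuroendocrine, polarity and pathway lists the kept share lay near the 41.7% of all the regions. Basal and stem-like genes had 23 (0.225%, beside 0.173%) with 12 kept (52.2%).

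The highest-scoring region of all lay in an intron near ZNF704 on chromosome 8 (chr8:81639715-81640170), with JUN scores of 4944 under siNC and 3628 under siFOXA2. It was followed by an intergenic region near POLR3GL, an RNA polymerase III subunit gene (chr1:145455241-145455746, 4110 and 2352), and an intronic region of the NSMCE2 neighbourhood (chr8:126286055-126286521, 3589 and 1359). The region near NES, the gene of the neural progenitor filament nestin (chr1:156629918-156630365), had 3223 and 2049 and lay in a non-coding gene, with a PC3 JUN region of score 744 and no H3K4me2. Intronic regions near FOXO6 (chr1:41837696-41838373, 2958 and 2869) and ZBTB7C (chr18:45743136-45743843, 2784 and 1723) overlapped no PC3 list. Distances to the nearest TSS, in the order given, were 146504, 14641, 149669, 16834, 5345 and 13164 bp. Of the words marked in the sequences above, the ZNF704 region held none over its whole length. NSMCE2 held TGACATCA, NES a TRE and TGACCTCA, and POLR3GL, FOXO6 and ZBTB7C only TGACCTCA. All 6 were accessible and kept, and scores are compared here only as ranks since the lists differ in length and unknown depth.

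Examples of each kind had high scores too. The strongest kept region after these 6 was an intronic one near RPL26L1 (chr5:172331748-172332371, 2714 under siNC and 1796 under siFOXA2), in 8 lists including 4 JUN lists of LNCaP. The strongest lost region lay in an intron near EIF2AK3, the gene of the stress kinase PERK (chr2:88899530-88900044, score 1722). It overlapped JUN regions of PC3 and LNCaP and a FOSL1 region, and has a TRE to each side of the octamer printed above. The strongest TRE outside the first 6 was near LRMDA (chr10:77862971-77863378, 2370), and the strongest CRE near TRIO (chr5:14264709-14265105, 2524), which was also the strongest further region shared with PC3 JUN (score 190 there). An intronic region near ZMIZ1 (chr10:80917232-80917703, 2303) was in 15 lists and overlapped PC3 JUN (2262) and PC3 vehicle FOXA2 (296). The strongest with FOXA2 under ORY-1001 was an intronic region near TNR, the tenascin R gene (chr1:175363858-175364251, 1595). Its FOXA2 score was 13, the lowest in that list. The nearest TSS of RPL26L1, EIF2AK3, LRMDA, TRIO, ZMIZ1 and TNR lay 53361, 4514, 214714, 25981, 88509 and 11249 bp away.

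In the gene lists, the leading region of the AP-1 genes lay 6028 bp from the TSS of ATF3 (chr1:212732154-212732648), holds both a TRE and a CRE as printed above, and had scores of 1997 under siNC and 1728 under siFOXA2. Near ROBO2, an axon guidance receptor gene (chr3:77130361-77130764), the scores were 1404 and 127, and near IQSEC1, an ARF6 exchange factor gene (chr3:13342913-13343362), 1026 and 431. The region assigned to SOX4 (chr6:21914363-21914742, 858) lay 320381 bp from its TSS and had no siFOXA2 region. EGFR (chr7:55198408-55198809) had 675 and 579, PCSK2, a prohormone convertase gene (chr20:17040110-17040453), 616 and 372, and HES1, a Notch target gene (chr3:193830239-193830720), 554 and 153. Distances to the TSS were 40480 bp (ROBO2), 18132 bp (IQSEC1), 20992 bp (EGFR), 166299 bp (PCSK2) and 23217 bp (HES1). Each of these 7 regions was accessible.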

How the data were processed

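ChIP-seq and ATAC-seq region lists of NCI-H660, PC3 and LNCaP cells (22 lists, 21 groups) were used as deposited. The submitters' processing notes name FastQC 0.11.9, BWA 0.7.17-r1188, SAMtools 1.9, MACS2 2.1.4 and hg19. MACS2 settings, control libraries, any pooling, and read shifting for ATAC-seq were not given in the sources used here. The authors deposited a whole-number score for each region in 20 lists. From its minimum (13 in the JUN lists of NCI-H660) it was inferred to be −log10 q multiplied by 10, and it was used only as a rank or a minimum within a list. The lists give no read numbers, so depth is unknown. The degree of FOXA2 silencing was not analysed here.

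Overlaps of at least 1 bp were counted with Python 3.11.15, NumPy 2.4.6 and pandas 2.3.3. Annotation was GENCODE 44 mapped to GRCh37, the build of hg19, with matching chromosome names. A region was placed in order as coding exon, UTR, intron, long non-coding RNA gene or intergenic. Other non-coding genes were counted as intergenic. Sequence windows ran 100 bp to either side of the centre, words were read on both strands, and the reference carries no repeat annotation. For copies, the central 32 bases were matched exactly to the reference on both strands. Overlap, interval and word-search code was tested on simulated data. Named regions were the 6 highest-scoring ones, the leading one of each stated kind outside these where possible, and the leading one of each reported gene list. Named genes were the 10 nearest to most regions. The regions, gene lists and rules were chosen with earlier results of these data known. TGACATCA, TGACCTCA, the chromosome 8 split, the copies and the PC3 class were added after values were seen. The counts of 1 gene list are not reported here.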

Additional observations from a re-analysis of the deposited data

How the results depend on the processing

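Of 42 planned and 20 later recalculations of the 7 main values, 22 and 7 stayed within the main value's 95% interval (1 SD for the unlabelled-antibody lists). Only the kept difference could change sign, since the other values are shares, and it did not. Requiring an overlap of 50% of both regions gave 41.3% accessible, 18.4% with H3K4me2, 31.6% kept, 9.60% with PC3 JUN and 7.34% with an unlabelled-antibody FOXA2 region. Regions scoring at least 50 gave 91.8%, 70.7%, 47.9%, 15.8% and 14.8%, a TRE share of 24.7% and a kept difference from FOXA2-bound distal regions of 9.45 points. Regions in fewer than 12 lists gave 16.4% with the TRE, 9.42% with PC3 JUN and 9.69% with an unlabelled-antibody region. The kept share was 30.2% with equal numbers of top regions from both JUN lists and 30.4% with siFOXA2 scores of at least 50, where the kept difference was 1.37 points. The TRE share was 11.2% within 50 bp and 24.8% within 250 bp. Leaving out each unlabelled-antibody list gave 10.5% to 12.2%. Of the choices made after seeing the data, leaving out chromosome 8 gave 85.1% accessible, 65.4% with H3K4me2, 40.5% kept, 18.8% with the TRE and 12.4% with PC3 JUN. Accessible regions alone gave 75.1%, 44.9%, 20.3% and 12.4% for the last 4 in that order, and 13.6% with an unlabelled-antibody region. Regions whose central bases occur at 1 place gave 81.5% accessible, 62.2% with H3K4me2 and 18.5% with the TRE.

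No paired analysis was possible because each condition had 1 list and no result came from a test between groups. Depth is unknown, so whether a lost region fell below a caller's limit for want of reads cannot be told apart from loss of binding. Whether the pair of unlabelled-antibody lists are repeats of one assay is not given in the labels.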
